A study of Sus scrofa with 9 samples.

Results

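The circadian clock genes followed here are CLOCK, PER1, PER2, PER3, CRY1, CRY2, NR1D1, NR1D2, BHLHE40 and TEF, 10 genes chosen by symbol and not by a threshold on their values. They were looked up among the 30477 gene IDs of the files, of which 14864 are paired with a symbol. A gene ID was found for 9 of the 10 genes. PER3 was not matched and was not analysed here. All 9 matched genes passed the filter on low values, which left 11063 genes for testing.

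The cells were porcine embryonic fibroblasts, connective tissue cells of pig embryos grown in culture, and the study's title asks about genes of metabolism after insulin. RNA was sequenced from 3 untreated cultures, from 3 cultures treated with insulin for 48 h and from 3 treated for 72 h. The titles of the untreated cultures name no time, and these controls are called 0 h here. The submitters describe the cultures of a time as biological replicates, and the sources used here state neither breed, insulin dose nor medium. No untreated culture labelled as 48 h or 72 h was analysed here, so insulin and time in culture cannot be told apart in any comparison with 0 h.

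The mammalian clock is a feedback loop of transcription. CLOCK, or its relative NPAS2, pairs with BMAL1 and activates genes that carry E-box elements, among them the PER, CRY, NR1D, BHLHE40 and TEF genes. PER and CRY proteins then block CLOCK and BMAL1, BHLHE40 competes for E-boxes, and NR1D1 and NR1D2 (REV-ERB alpha and beta) repress BMAL1 against activation by ROR receptors. Fibroblasts in culture carry such clocks, which drift apart between cells unless a signal sets them together, and serum, glucocorticoids and insulin are known to act on PER genes. The insulin samples were taken at multiples of 24 h. If the controls were taken at the start of treatment, a rhythm of that exact period would be sampled at the same phase each time. The titles of the controls do not say when they were taken. With 3 times, a shift of phase, a change of amplitude and a change of mean level cannot be told apart.

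Values are FPKM, fragments scaled to gene length and library size. A log2 change is on the scale of log2(FPKM + 1), given with its standard error (SE), and a gene was called where limma's p, adjusted over all 11063 genes, was below 0.05. Because whole cultures were sequenced, fewer cells that express a gene and less RNA per cell cannot be told apart.

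The FPKM values summed to 487858 to 497665 per library at 0 h, 524992 to 563656 at 48 h and 505022 to 525471 at 72 h, and the number of reads is unknown. The fibroblast label was checked on 9 markers, all of which were detected, with a summed FPKM of 21233 to 22152 at 0 h, 18957 to 20262 at 48 h and 21653 to 22057 at 72 h. EPCAM and CDH1 (epithelium), CDH5, KDR, TEK and EMCN (endothelium) and PTPRC, CSF1R, AIF1 and CD3E (blood cells) did not pass an FPKM of 0.1 in any library. The sum is carried by collagens and VIM, and 4 of the 9 markers rose and 3 fell at 48 h, and 5 rose and 1 fell at 72 h. PDGFRA averaged 9.34 FPKM at 0 h, 26.9 at 48 h and 36.4 at 72 h, LUM 12.7, 33.8 and 48.3, and DCN 26.5, 46.9 and 72.2. COL1A2 fell at both times, with means of 5680 FPKM at 0 h, 4276 at 48 h and 4953 at 72 h. Some marker lists of other cells moved with the groups as well. Markers of pericytes and smooth muscle fell, 7 of 7 tested at 48 h and 7 of 7 at 72 h, with sums of 7289 to 7434 FPKM at 0 h, 5484 to 6384 at 48 h and 5344 to 6035 at 72 h, while RGS5 of that list stayed below 0.1. ACTA2, DES and CNN1 carried this sum, with 0 h means of 5040, 1440 and 706 FPKM. Of 3 tested immune markers, CD14 and CD79A rose at both times, with sums over the list of 33.7 to 37.3 FPKM at 0 h, 56.1 to 58.8 at 48 h and 41.9 to 70.5 at 72 h. The epithelial list summed to 8.05 to 9.37 FPKM at 0 h, 14.2 to 14.9 at 48 h and 10.9 to 12.2 at 72 h, with 1 of 2 tested markers (KRT8) higher and 1 (ESRP1) lower at both times. The endothelial list stayed between 0.740 and 1.26 FPKM with no call. Skeletal muscle markers summed to 26.0 to 26.6 FPKM at 0 h, 22.6 to 23.5 at 48 h and 14.5 to 19.0 at 72 h, and neural markers to 199 to 206, 228 to 274 and 201 to 209 at these times. Of 3 tested muscle markers MYH3 fell at both times, ACTC1 fell at 72 h and MYOG rose at both. MYOG reached the filter only through insulin libraries, so its rise was built into that choice. Of 3 tested neural markers TUBB3 rose at both times (means of 66.6, 150 and 138 FPKM), NES fell at both (112, 82.0 and 48.9) and STMN2 fell at 72 h. All 18 tested mitosis genes fell at both times and were lower again at 72 h than at 48 h, with sums of 672 to 714 FPKM at 0 h, 299 to 328 at 48 h and 137 to 167 at 72 h. Over all tested genes 49.9% were called at 48 h, 45.5% at 72 h and 25.4% between 72 h and 48 h. The part of the marker and mitosis gene shifts in the clock gene results was not tested.

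Most of the 9 listed clock genes differed from 0 h at both later times, and more of these 9 were lower than higher. That balance holds for the list only, which was chosen with earlier results of these data known. Of the 8 other tested clock genes, given below, 3 rose and 0 fell at 48 h. At 72 h 5 of these 8 rose and 0 fell, with RORA, which passed the filter only through its 72 h libraries, among the 5. At 48 h 7 of the 9 genes were called, with PER1 and BHLHE40 higher and CLOCK, PER2, NR1D1, NR1D2 and TEF lower. At 72 h 7 of 9 were called again, with CRY1 and BHLHE40 higher and PER2, CRY2, NR1D1, NR1D2 and TEF lower. The share of calls over all tested genes was 49.9% at 48 h, with 27.6% higher and 22.4% lower, and 45.5% at 72 h, with 23.0% higher and 22.5% lower. By the moderated F-test over the 3 times 8 of 9 were called, against 60.6% of all tested genes, and CRY1 was the exception (adjusted p = 0.0601).

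The median log2 change of the 9 genes was -0.30 at 48 h and -0.39 at 72 h, against 0.02 and -0.01 over all tested genes. Without regard to sign the medians were 0.42 at both times, against 0.23 at 48 h and 0.21 at 72 h over all tested genes. The libraries of the compared times did not overlap for 7 of 9 genes at 48 h and for 8 of 9 at 72 h, against 60.0% and 58.6% of all tested genes. Both comparisons share the 0 h libraries, so the genes they have in common are not independent evidence.

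**Figure D1:**
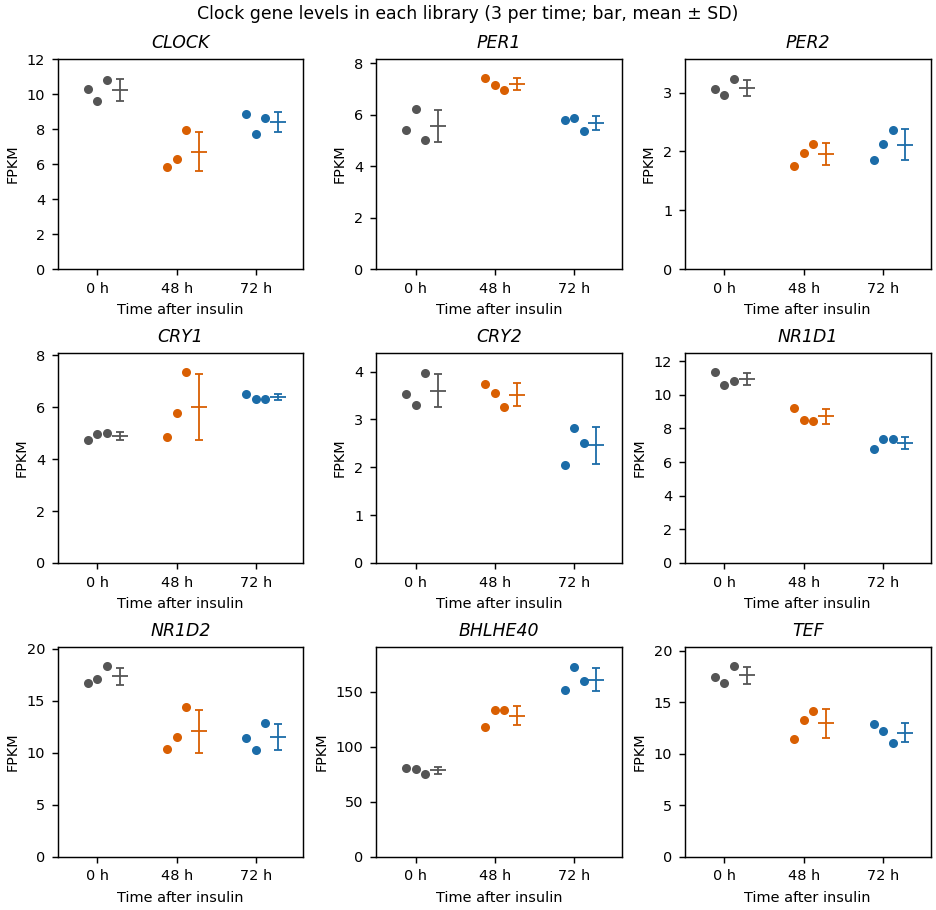
FPKM (vertical axes, from 0, with a scale of their own for each gene) of the 9 clock genes in each of the 3 libraries at 0 h, 48 h and 72 h after insulin, with the mean ± SD as a bar beside the points. BHLHE40 lies at 151.54 to 172.02 FPKM at 72 h, above all 0 h libraries, while PER2, NR1D1, NR1D2 and TEF lie below their 0 h libraries at both later times.

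CLOCK (ENSSSCG00000008909, protein-coding, chromosome 8 at 54793323 to 54910192 of Sscrofa11.1) encodes the activator that gives the system its name. Its level was 10.27, 9.59 and 10.83 FPKM in the 0 h libraries, 5.86, 6.30 and 7.97 at 48 h and 8.86, 7.75 and 8.63 at 72 h. The 0 h libraries were the highest, and the 48 h and 72 h libraries overlapped. CLOCK fell by 0.55 on the log2 scale at 48 h (SE 0.10, adjusted p = 0.00138), to 6.71 ± 1.11 FPKM against 10.2 ± 0.621 at 0 h (SD, n = 3 each). The change at 72 h was -0.26 (SE 0.10, adjusted p = 0.0612) and did not pass the threshold, though the libraries did not overlap. It was called at 72 h in 5 of 18 alternatives, with adjusted p values of 0.0391 without 48 h replicate 1, 0.0177 without 48 h replicate 3, 0.0192 with 2 groups only, 0.0329 with library weights and 0.0385 with a replicate block. The RefSeq span of CLOCK shares 3030 bases with that of TMEM165.

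The other genes of the activating arm, which are not among the 10, moved the opposite way. BMAL1, the partner of CLOCK, had 3.50, 3.49 and 4.38 FPKM at 0 h, 7.02, 5.73 and 6.60 at 48 h and 5.26, 5.51 and 5.09 at 72 h. It rose by 0.64 at 48 h (SE 0.09, adjusted p = 3.72e-04) and by 0.40 at 72 h (SE 0.09, adjusted p = 0.00588), and neither later group overlapped the 0 h libraries. NPAS2, which can stand in for CLOCK, had 10.24, 9.48 and 9.43 FPKM at 0 h, 14.18, 13.00 and 13.16 at 48 h and 16.23, 13.47 and 14.38 at 72 h. It rose by 0.43 (SE 0.08, adjusted p = 0.00116) and by 0.55 (SE 0.08, adjusted p = 1.98e-04). BMAL2, a relative of BMAL1, rose by 0.40 at 48 h (adjusted p = 0.00569) and by 0.34 at 72 h (adjusted p = 0.0127), and both calls were lost when libraries were scaled to equal FPKM sums (adjusted p = 0.0602 and 0.0503).

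The balance of NPAS2 and CLOCK shows the contrast within each library, where the scaling cancels. Their FPKM ratio was 0.997, 0.989 and 0.871 at 0 h, 2.42, 2.06 and 1.65 at 48 h and 1.83, 1.74 and 1.67 at 72 h. All 6 insulin libraries had more NPAS2 than CLOCK per length, and the 0 h libraries had about as much of each. This pair was chosen after the values had been seen.

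The PER genes encode repressors that follow the clock and also respond to outside signals. PER1 (ENSSSCG00000017983, chromosome 12 at 53361863 to 53376723) had 5.41, 6.23 and 5.01 FPKM at 0 h, 7.43, 7.14 and 6.97 at 48 h and 5.79, 5.89 and 5.37 at 72 h. The 48 h libraries stood above the rest, and the 72 h libraries lay within the range of 0 h. PER1 rose by 0.32 at 48 h (SE 0.08, adjusted p = 0.00738). At 72 h it was at 0.03 against 0 h (SE 0.08, adjusted p = 0.768). Scaling to equal FPKM sums, which moved the median gene by -0.12 at 48 h, left PER1 at 0.21 with an adjusted p of 0.0604.

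PER2 (ENSSSCG00000016338, chromosome 15 at 137793419 to 137837854) was the least abundant of the 9 genes, with 3.06, 2.96 and 3.23 FPKM at 0 h, 1.76, 1.98 and 2.13 at 48 h and 1.85, 2.13 and 2.37 at 72 h. The libraries of both later times lay below those of 0 h and overlapped each other. PER2 fell by 0.47 at 48 h (SE 0.09, adjusted p = 0.00174) and by 0.39 at 72 h (SE 0.09, adjusted p = 0.00451).

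PER1 and PER2 differed in direction at 48 h. The ratio of PER1 to PER2 was 1.77, 2.1 and 1.55 at 0 h, 4.22, 3.61 and 3.27 at 48 h and 3.13, 2.77 and 2.27 at 72 h. The 3 times did not overlap. The log2 ratio was higher by 0.79 at 48 h and by 0.43 at 72 h than at 0 h, and the 72 h value was lower than that of 48 h, with a difference of -0.37. Each had an exact two-sided permutation p of 0.1, the smallest that 3 libraries against 3 allow (0.225 adjusted over 9 such comparisons).

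The CRY genes encode the strongest repressors of CLOCK and BMAL1. CRY1 (ENSSSCG00000000164, chromosome 5 at 13275265 to 13429566) had 4.73, 4.97 and 5.02 FPKM at 0 h, 4.87, 5.77 and 7.37 at 48 h and 6.52, 6.33 and 6.31 at 72 h. At 48 h the libraries spread from the level of 0 h to the highest value of all 9, and at 72 h they lay together above 0 h. The change at 48 h was 0.23 (SE 0.11, adjusted p = 0.106). It was called in 2 of 18 alternatives, without 48 h replicate 1 (0.35, adjusted p = 0.0139) and with library weights (0.22, adjusted p = 0.0214). CRY1 rose by 0.32 at 72 h (SE 0.11, adjusted p = 0.0343), a call that was lost without any 1 of the 0 h or 72 h libraries (adjusted p from 0.0646 to 0.0956). The RefSeq span of CRY1 holds the genes MTERF2 and TMEM263, so reads of these genes could have been shared where the counting did not use strand.

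CRY2 (ENSSSCG00000013270, chromosome 2 at 16587101 to 16620380) had 3.53, 3.31 and 3.97 FPKM at 0 h, 3.73, 3.55 and 3.26 at 48 h and 2.05, 2.81 and 2.51 at 72 h. The 72 h libraries were the lowest, and those of 48 h lay about the 0 h level. CRY2 fell by 0.42 at 72 h (SE 0.10, adjusted p = 0.00567) and was at -0.03 at 48 h (SE 0.10, adjusted p = 0.839). The ratio of CRY1 to CRY2 was 1.34, 1.5 and 1.26 at 0 h, 1.31, 1.63 and 2.26 at 48 h and 3.18, 2.25 and 2.51 at 72 h. At 72 h it lay above 0 h in all libraries, and the 48 h libraries overlapped both other times. The log2 difference of 72 h from 0 h, with 1 added to each FPKM, was 0.74 (exact permutation p = 0.1, 0.225 adjusted over the 9 comparisons). With 0.1 added it was 0.92.

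**Figure D2:**
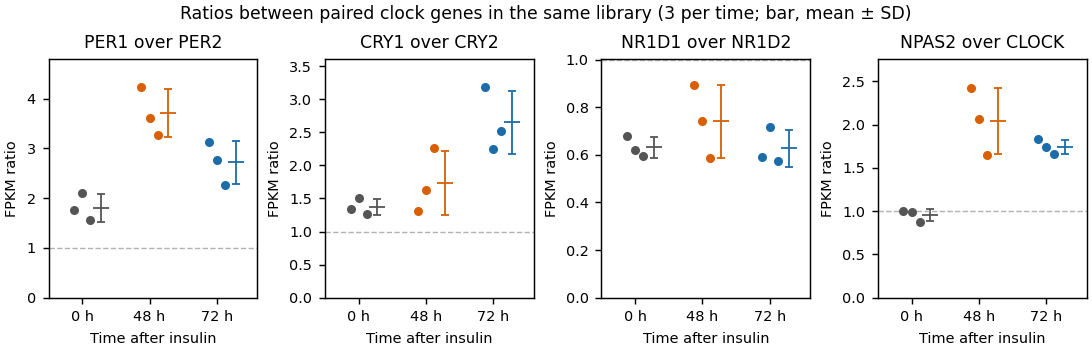
FPKM ratio (vertical axes, from 0; the dashed line marks equal levels) between paired clock genes in the same library, 3 libraries each at 0 h, 48 h and 72 h after insulin, with the mean ± SD as a bar. The ratio of PER1 to PER2 is 3.27 to 4.22 at 48 h, against 1.55 to 2.1 at 0 h, that of NPAS2 to CLOCK is above 1 in all insulin libraries, and that of NR1D1 to NR1D2 overlaps between the times.

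NR1D1 and NR1D2 encode nuclear receptors that bind haem and repress BMAL1. NR1D1 (ENSSSCG00000036933, chromosome 12 at 22263549 to 22274131) had 11.34, 10.61 and 10.84 FPKM at 0 h, 9.23, 8.48 and 8.42 at 48 h and 6.75, 7.36 and 7.35 at 72 h. The 3 times did not overlap, and each later time was lower. NR1D1 fell by 0.30 at 48 h (SE 0.07, adjusted p = 0.00435) and by 0.55 at 72 h (SE 0.07, adjusted p = 7.28e-05).

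The RefSeq span of NR1D1 shares 3626 bases with THRA, a thyroid hormone receptor gene, and no source used here says if reads were counted by strand. THRA, looked at for this reason, had 11.68, 11.50 and 11.18 FPKM at 0 h, 12.76, 13.30 and 13.74 at 48 h and 12.18, 14.57 and 12.39 at 72 h. Its libraries lay above 0 h where those of NR1D1 lay below, with changes of 0.20 (adjusted p = 0.0483) and 0.17 (adjusted p = 0.0862). How far reads of the shared stretch were counted for either gene was not tested.

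NR1D2 (ENSSSCG00000027017, chromosome 13 at 10756954 to 10791219) had 16.69, 17.06 and 18.28 FPKM at 0 h, 10.33, 11.46 and 14.36 at 48 h and 11.40, 10.28 and 12.83 at 72 h. The libraries of both later times lay below 0 h and overlapped each other. NR1D2 fell by 0.50 at 48 h (SE 0.11, adjusted p = 0.00393) and by 0.56 at 72 h (SE 0.11, adjusted p = 0.00204). The ratio of NR1D1 to NR1D2 averaged 0.631 ± 0.044 at 0 h, 0.740 ± 0.154 at 48 h and 0.627 ± 0.078 at 72 h (SD, n = 3 each), with overlapping libraries throughout. The log2 ratio, with 1 added to each FPKM, differed by 0.20 between 48 h and 0 h (exact permutation p = 0.4) and by 0.01 between 72 h and 0 h (exact permutation p = 1).

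BHLHE40 (ENSSSCG00000036136, chromosome 13 at 61526121 to 61533686), also called DEC1, encodes an E-box repressor that many signals outside the clock induce as well, hypoxia among them. It was by far the most abundant of the 9 genes, with 80.64, 80.15 and 74.74 FPKM at 0 h, 118.01, 133.15 and 133.12 at 48 h and 151.54, 172.02 and 159.62 at 72 h. The 3 times did not overlap, and each later time was higher. BHLHE40 rose by 0.70 at 48 h (SE 0.07, adjusted p = 2.65e-05) and by 1.03 at 72 h (SE 0.07, adjusted p = 7.86e-07), 1.63 and 2.05 times the 0 h mean. Its RefSeq span shares 2718 bases with the long non-coding gene LOC106505661. BHLHE41, its paralog, was far lower, with means of 1.64 ± 0.148 FPKM at 0 h, 2.14 ± 0.293 at 48 h and 1.79 ± 0.247 at 72 h (SD, n = 3 each). Its changes of 0.25 at 48 h and 0.08 at 72 h did not pass the threshold (adjusted p = 0.0632 and 0.565).

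TEF (ENSSSCG00000035152, chromosome 5 at 7119354 to 7135171) encodes an activator of the PAR bZIP family, which carries the rhythm to output genes with D-box elements. It had 17.50, 16.86 and 18.54 FPKM at 0 h, 11.40, 13.27 and 14.17 at 48 h and 12.86, 12.26 and 11.07 at 72 h. The libraries of both later times lay below 0 h. TEF fell by 0.42 at 48 h (SE 0.09, adjusted p = 0.00250) and by 0.51 at 72 h (SE 0.09, adjusted p = 6.78e-04).

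The relatives of TEF were low. DBP averaged 1.29 ± 0.082 FPKM at 0 h, 1.41 ± 0.532 at 48 h and 1.59 ± 0.212 at 72 h, with changes of 0.05 and 0.17 (adjusted p = 0.793 and 0.363). HLF lay below the filter, at 0.29 to 0.37 FPKM at 0 h, 0.11 to 0.19 at 48 h and 0.09 to 0.30 at 72 h. NFIL3, which represses D-box genes, had 46.35, 49.92 and 47.63 FPKM at 0 h, 40.85, 45.72 and 46.72 at 48 h and 64.29, 71.45 and 64.72 at 72 h. The 72 h libraries stood above all others, and NFIL3 rose by 0.47 at 72 h (SE 0.07, adjusted p = 2.60e-04). At 48 h it was at -0.11 (adjusted p = 0.207), and 3 scalings of the libraries gave a call there, from -0.24 to -0.22.

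RORA, a ROR receptor that activates BMAL1, had 0.63, 0.75 and 0.85 FPKM at 0 h, 0.51, 0.71 and 0.82 at 48 h and 1.18, 1.28 and 1.33 at 72 h. It reached the filter only through its 72 h libraries, so a difference at 72 h was built into that choice, and its change of 0.38 at 72 h is given as a description. RORB stayed below 0.1 FPKM in all libraries. CIART, another repressor of CLOCK and BMAL1, averaged 6.48 ± 0.330 FPKM at 0 h, 4.92 ± 0.454 at 48 h and 5.16 ± 1.73 at 72 h. Its changes of -0.34 and -0.32 did not pass the threshold (adjusted p = 0.0947 and 0.127). The change at 48 h was called in 5 of 18 alternatives, with equal FPKM sums (adjusted p = 0.0291), equal protein-coding sums (0.0363), 2 groups only (0.00973), library weights (0.00856) and without 72 h replicate 2 (0.00949). Library weights also gave a call at 72 h (adjusted p = 0.0224), and without 72 h replicate 2, at 7.12 FPKM the highest of its group, CIART was also called lower at 72 h (-0.53, adjusted p = 0.00191). In all, of the 8 tested clock genes outside the 10, 3 rose and 0 fell at 48 h and 5 rose and 0 fell at 72 h, in the limma fit, with RORA among the 5. Over all tested genes 27.6% were higher and 22.4% lower at 48 h, and 23.0% and 22.5% at 72 h. At an unadjusted p below 0.05, 0 of the 8 fell at either time, with CIART nearest to it (unadjusted p = 0.0541 and 0.0711).

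**Figure D3:**
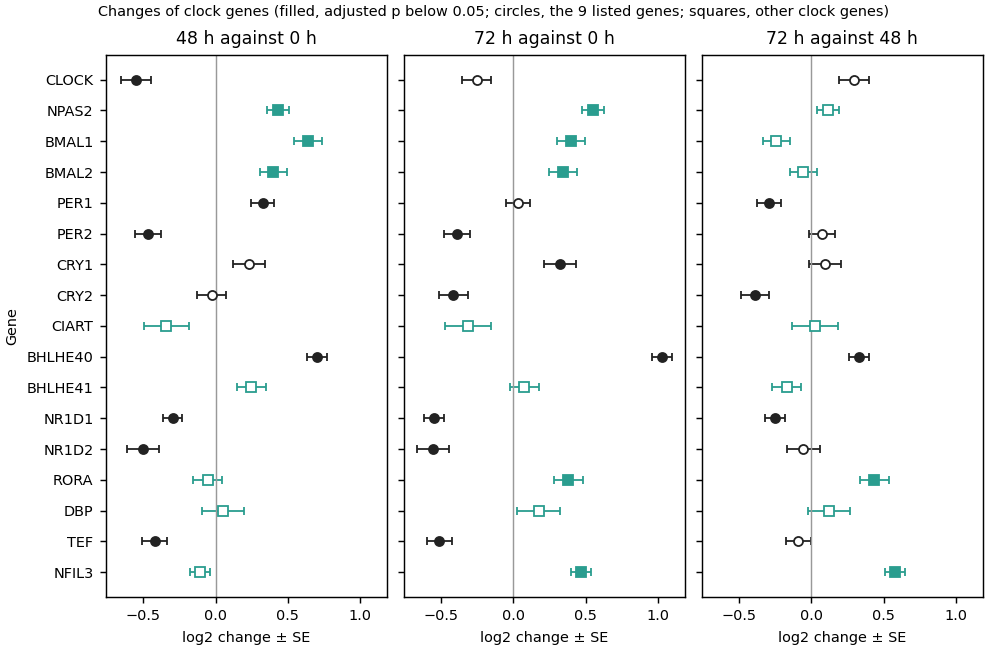
Log2 change ± SE (horizontal axes) of 17 tested clock genes in 3 panels, with each insulin time set against 0 h and then 72 h set against 48 h. Circles are the 9 genes of the list and squares the other clock genes, filled where the adjusted p is below 0.05. BHLHE40 has the highest changes from 0 h, at 0.70 and 1.03, and in both comparisons with 0 h CLOCK lies on the other side of 0 from NPAS2, BMAL1 and BMAL2.

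Between the later times 4 of the 9 genes were called, against 25.4% of all tested genes, with BHLHE40 higher at 72 h and PER1, CRY2 and NR1D1 lower (9.17% higher and 16.3% lower over all genes). The libraries of 72 h and 48 h did not overlap for 4 of 9 genes, against 38.9% of all tested genes. BHLHE40 was higher at 72 h by 0.33 (SE 0.07, adjusted p = 0.00708). The changes of the other 3 were -0.29 for PER1 (adjusted p = 0.0247), -0.39 for CRY2 (adjusted p = 0.0176) and -0.25 for NR1D1 (adjusted p = 0.0212). PER1 and NR1D1 lost their calls with equal FPKM sums (adjusted p = 0.0792 and 0.0704) and with equal sums over protein-coding genes (adjusted p = 0.0724 and 0.0624), PER1 also with no filter (adjusted p = 0.0524) and NR1D1 also with the 2 later groups fitted alone (adjusted p = 0.0626). Of the 4 calls that of BHLHE40 was kept without each library in turn. Without 48 h replicate 1 or without 72 h replicate 1 it was the only call of the 9 genes, and without 48 h replicate 2 there were 2. CLOCK was at 0.30 between these times (adjusted p = 0.0536), and it was called in 8 of 18 alternatives. These were the runs without 48 h replicate 3 (0.41, adjusted p = 0.00617) and without 72 h replicate 2 (0.35, adjusted p = 0.0492), 3 scalings (adjusted p from 0.0362 to 0.0435), library weights (0.00788), the replicate block (0.0363) and the filter at a mean of 5 FPKM (0.0487). Outside the 10 genes, NFIL3 was higher at 72 h than at 48 h by 0.58 (adjusted p = 2.69e-04) while RORA, which passed the filter only through its 72 h libraries, was at 0.43.

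The 48 h libraries differed among themselves. Replicate 3 was the highest of the 3 for CLOCK, PER2, CRY1, NR1D2 and TEF, and replicate 1 the lowest for these genes and BHLHE40. PER1, CRY2 and NR1D1 went the other way, highest in replicate 1 and lowest in replicate 3. Over all tested genes replicate 3 was the highest for 37.4% and the lowest for 37.1%. Replicate 1 was the highest for 40.3% and the lowest for 38.1%. CLOCK, PER2, NR1D2 and TEF in replicate 3 therefore lay nearest to the 0 h level, while CRY1 there lay farthest from it.

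**Figure D4:**
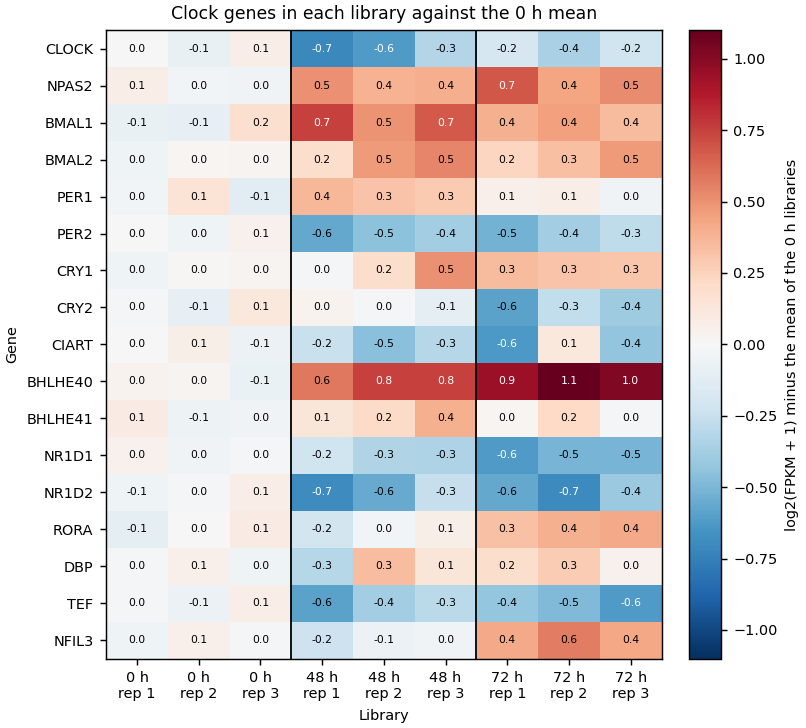
Log2(FPKM + 1) minus the mean of the 0 h libraries (colour and printed value) for 17 clock genes (rows) in each of the 9 libraries (columns). CLOCK, PER2, NR1D1, NR1D2 and TEF are below 0 in all 6 insulin libraries, BHLHE40, NPAS2, BMAL1 and BMAL2 are above it, and within the 48 h group the libraries vary for CRY1 and NR1D2.

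Within a time the levels fell into a stable order at its ends. BHLHE40 was the highest, and TEF and NR1D2 came next, with libraries that overlapped each other at each time. PER2 was the lowest, separate from CRY2 at 0 h and 48 h and overlapping it at 72 h. In the middle the order varied. NR1D1 and CLOCK overlapped at 0 h, with means of 10.9 and 10.2 FPKM. CLOCK lay among PER1 and CRY1 at 48 h, at 6.71 FPKM beside 7.18 and 6.0, and above NR1D1 at 72 h, at 8.41 against 7.15.

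Genes whose levels ran most alike were found by Pearson's r of log2(FPKM + 1) over the 9 libraries, which fall into 3 groups by time, so that any gene with the same order of times gives a high r. For CLOCK these were XPOT (r = 0.991) and GNG12 (r = 0.987), for PER2 SIN3A and NEK7 (both r = 0.984) and for NR1D2 DDX21 and KPNA3 (both r = 0.987). For TEF they were ETS1 (r = 0.991) and NFATC2IP (r = 0.987), for NR1D1 HROB and LOXL3 (both r = 0.990), and for BHLHE40 PLA2G3 (r = 0.997) and CTDSP2 (r = 0.996). PER1 was nearest to BET1L (r = 0.961) and MAP2K3 (r = 0.957), CRY2 to DRG1 (r = 0.965) and FGFRL1 (r = 0.964), and CRY1 to FAM177A1 (r = 0.952) and TMEM135 (r = 0.941). The number of genes with r above 0.95 was 255 for NR1D1, 220 for BHLHE40 and 125 for NR1D2, but 10 for CRY2, 4 for PER1 and 1 for CRY1. Spread between the libraries of a time lowers r as well, so a low count need not mean a rare pattern over the times.

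Genes that modify clock proteins were followed as a list of 18 kinases, phosphatases and ubiquitin ligases, of which 15 were tested. At 48 h 3 rose and 6 fell, with a median of -0.09, and at 72 h 1 rose and 4 fell, with a median of -0.15. Of all tested genes 49.9% were called at 48 h and 45.5% at 72 h, with medians of 0.02 and -0.01, so these counts are no result about the list. CSNK2B, the regulatory subunit of casein kinase 2, which phosphorylates BMAL1, rose by 0.74 at 48 h (adjusted p = 2.04e-04) and by 0.46 at 72 h (adjusted p = 0.00341). CSNK1D, the kinase that times PER turnover, averaged 67.8 ± 1.66 FPKM at 0 h, 77.8 ± 0.812 at 48 h and 71.9 ± 6.62 at 72 h (SD, n = 3 each), and passed at 48 h (0.20, adjusted p = 0.0292). PRKAA1, a subunit of the energy sensor AMPK, and BTRC, which marks PER proteins for degradation, fell at 48 h, with log2 changes of -0.85 and -0.44 (adjusted p = 0.0223 and 0.0186). PRKAA1 had 7.06, 13.21 and 19.91 FPKM at 48 h, against 24.93, 20.57 and 24.17 at 0 h, and without 48 h replicate 1 its change was -0.49. Both calls were lost with no filter (adjusted p = 0.0731 and 0.0551). The call of PRKAA1 was also lost without 0 h replicate 1 (adjusted p = 0.0623) or 0 h replicate 3 (adjusted p = 0.0616), and that of BTRC without 0 h replicate 2, 48 h replicate 1 or 48 h replicate 2 (adjusted p = 0.0761, 0.0609 and 0.0669). GSK3A and PPP2CA, a kinase and a phosphatase catalytic subunit, fell at 72 h, with log2 changes of -0.31 and -0.28 (adjusted p = 0.00295 and 0.00469).

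Of 16 tested coregulators of the clock, 1 rose and 3 fell at 48 h and 2 rose and 7 fell at 72 h, against 49.9% and 45.5% called over all tested genes. TIMELESS, which acts mainly at replication forks in mammals, fell to 1.24 ± 0.020 FPKM at 72 h, against 3.47 ± 0.042 at 0 h (SD, n = 3 each, adjusted p = 2.30e-06), and its partner TIPIN fell by 0.73 (adjusted p = 2.53e-04). SFPQ, an RNA-binding protein found with PER complexes, fell by 0.35 at 72 h (adjusted p = 0.00484). KDM5A, a histone demethylase that acts with CLOCK and BMAL1, fell by 0.48 at 48 h (adjusted p = 0.00436). The mitosis genes given above fell in the same libraries.

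Of 15 tested genes known as outputs of the clock in some tissue, 9 rose and 2 fell at 48 h (median 0.31) and 8 rose and 4 fell at 72 h (median 0.18), beside 49.9% and 45.5% called over all tested genes. Many of them answer to other pathways too. TFRC, the transferrin receptor, rose by 0.75 at 48 h and 1.62 at 72 h, and TSPO, a protein of the outer mitochondrial membrane, by 0.84 and 0.79.

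Signals that induce PER genes were followed by 2 lists. Of 7 tested glucocorticoid targets 4 rose and 1 fell at 48 h, and 5 rose and 1 fell at 72 h. CEBPD rose by 2.1 and 2.25, NFKBIA by 1.34 and 0.71 and ERRFI1 by 1.24 at both times, and inflammatory or growth signals are known to induce these genes as well. FKBP5, the gene of this list that fell at 72 h, averaged 10.6 ± 0.531 FPKM at 0 h, 10.5 ± 0.520 at 48 h and 8.75 ± 0.435 at 72 h. KLF9, of the same list, rose by 0.47 at 48 h and by 0.67 at 72 h in the limma fit (adjusted p = 0.00287 and 2.53e-04). A part of glucocorticoid signals in these changes was not tested. Of 15 tested genes of CREB and serum responses 4 rose and 5 fell at 48 h, and 10 rose and 2 fell at 72 h. The same shares over all tested genes, 49.9% and 45.5%, apply to both lists. FOS, FOSB and EGR1, induced within minutes of a stimulus, fell at 48 h, with log2 changes of -2.68, -2.49 and -1.67, and rose at 72 h, by 0.88, 1.39 and 1.39. NR4A1, a nuclear receptor of the same early response, rose by 0.95 and 1.25. PER1 had its highest mean at 48 h, the time at which FOS, FOSB and EGR1 had their lowest, and a part of the one in the other was not tested.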

How the data were processed

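RNA of porcine embryonic fibroblasts was measured in 9 libraries, 3 of controls and 3 each at 48 h and 72 h of insulin, grouped by the submitters' titles. The titles of the controls name no time, and the controls are called 0 h here. Libraries of RNA depleted of ribosomal RNA were made with an NEBNext Ultra kit, per the labels' protocols. The deposited values are FPKM with 2 decimals, made by the authors, per the file headers. Named in the submitters' processing notes, with no role or order, are Sscrofa11.1, RSEM 1.2.28, DESeq2, featureCounts 2.0.2 and HISAT2 2.1.0. FPKM carry no counts, so depth is unknown and the spread between libraries sets the precision.

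All 9 libraries entered a limma 3.58.1 fit (R 4.3.3) of log2(FPKM + 1), pseudocount 1, with group as the only term and a trended prior, over genes that reached 1 FPKM in 3 or more libraries. Tests were two-sided, adjusted by Benjamini-Hochberg over 11063 genes and called below 0.05. The fit was tested on simulated data. Within-library ratios of paralogs, as log2 with 1 added to each FPKM, were compared by exact permutation tests. Alternatives were a pseudocount of 0.1, other filters, 3 scalings, 2 groups only, library weights (gene-by-gene method), a replicate block and leaving out each library. Coordinates came from RefSeq for Sscrofa11.1 by symbol. The rule for named genes took all 10 genes, all measured core clock genes, up to 3 called genes with the largest change per further list and the 2 genes most alike to each member. CSNK1D, FKBP5, KLF9 and THRA lie outside it and were chosen after their values were seen. Some genes that the rule takes are not reported here. Members and lists were chosen with earlier results of these data known.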

Additional observations from a re-analysis of the deposited data

Results flagged for a closer look

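For 4 of the 9 clock genes the change from 0 h differed between 48 h and 72 h by limma's test of that difference, which is the comparison of 72 h with 48 h and called 25.4% of all tested genes. The log2 difference was -0.29 for PER1, -0.39 for CRY2 and -0.25 for NR1D1, all lower at 72 h, and 0.33 for BHLHE40, higher at 72 h. The adjusted p values were 0.0247, 0.0176, 0.0212 and 0.00708. Leaving out 1 library brought the count of 4 to as few as 1, and PER1 and NR1D1 lost their calls with equal FPKM sums (adjusted p = 0.0792 and 0.0704) and with equal protein-coding sums (adjusted p = 0.0724 and 0.0624). The libraries of 72 h and 48 h did not overlap for these 4 of the 9 genes, against 38.9% of all tested genes.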

How the results depend on the processing

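Against 0 h, the calls of PER2, NR1D1, NR1D2, BHLHE40 and TEF at both times, of CLOCK at 48 h and of CRY2 at 72 h were kept under every alternative that tested them. A filter at a mean FPKM of 5 left PER2 and CRY2 untested. Between 72 h and 48 h the number of clock genes called was 1 to 5 when 1 library was left out, against 4 with all, and the number of all genes called was 1727 to 3693, against 2814. With the 2 later groups fitted alone it was 1839. The cause was not tested. The call of CRY1 at 72 h was also lost with no filter (adjusted p = 0.0831), and with equal FPKM sums (adjusted p = 0.0944) or equal protein-coding sums (adjusted p = 0.0776).

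Several changes near 0 took the other sign, and none of them was called. At 48 h, quantile normalization gave 0.00064 for CRY2 and -0.050 for SFPQ, equal FPKM sums gave -0.024 for DBP, -0.035 for SFPQ and -0.073 for STMN2 (a neural marker), equal protein-coding sums gave -0.010, -0.011 and -0.050 for these genes, and library weights gave -0.014 for STMN2. At 72 h, equal FPKM sums gave -0.015 for PER1. For 72 h against 48 h, equal FPKM sums gave 0.020 for both NR1D2 and BMAL2, equal protein-coding sums gave 0.014 and 0.015, and library weights gave -0.078 for DBP. Leaving out 1 library gave -0.074 to 0.029 for CRY2, -0.12 to 0.019 for RORA, -0.091 to 0.23 for DBP and -0.0040 to 0.11 for STMN2 at 48 h, and -0.027 to 0.11 for PER1 and -0.21 to 0.040 for BTRC at 72 h. For 72 h against 48 h it gave -0.027 to 0.23 for CRY1, -0.15 to 0.069 for NR1D2, -0.16 to 0.012 for BMAL2, -0.19 to 0.18 for CIART and -0.062 to 0.26 for DBP.

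The labels number the replicates 1 to 3 at each time, and same-numbered libraries correlated in their deviations by -0.07 to 0.19, so the numbers were not taken as pairs. With a replicate block 7, 8 and 5 of the 9 genes were called at 48 h, at 72 h and between them, and 5632, 5152 and 3031 of all genes, and CLOCK was the gene gained at 72 h and between them.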
